A study of Mus musculus with 18 samples.

Results

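Ltf, Camp, Ngp, Lcn2 and Cd177 were followed as a set of genes of the neutrophil specific granule. They were chosen by symbol and are 5 of the 22049 genes named across 18 single-cell count tables. The tables came from lungs, spleens and implanted biomaterial scaffolds of female BALB/cJ mice with and without a mammary tumour. Tumour-bearing mice had been given 2000000 4T1-tdTomato-luc2 cells, a reporter-carrying mouse mammary carcinoma line, in the fourth right mammary fat pad at 7 to 8 weeks of age, and healthy mice had been given no tumour cells. Organs and scaffolds were taken 7, 14 or 21 days later, when the mice were labelled 9, 10 and 11 weeks old. Cells were captured by Drop-seq, in which a cell and a barcoded bead share a droplet and each transcript is counted as a unique molecular identifier (UMI) at its 3′ end. Each tissue, status and day gave 1 library and a group of tissue and status held 3 libraries, each from another day. Values of 1 day are therefore compared without a test. The labels give neither the number of mice per library nor the scaffold material, so every p-value below measures the spread between libraries. Since the libraries of a group come from different days, that spread holds any change of a difference from day to day. It may also be technical, and these parts cannot be told apart.

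Neutrophils fill their granules in waves while they mature: azurophil granules with myeloperoxidase and serine proteases come early, specific granules follow in myelocytes, and gelatinase granules come last. Ltf encodes lactoferrin, an iron-binding antimicrobial protein, and Lcn2 encodes lipocalin 2, which binds bacterial siderophores and is also made by stimulated mature neutrophils and epithelia. Camp encodes the cathelicidin precursor of an antimicrobial peptide, and Ngp encodes neutrophilic granule protein, a cystatin-like protein. Cd177 encodes a surface protein of neutrophils that is also held in specific granules. Transcription of specific granule genes is known to depend on C/EBP epsilon.

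In GRCm38.p6, the mm10 assembly that the submitters' processing notes name, RefSeq places Ltf at chr9:111019292-111042766 on the plus strand, Camp at chr9:109847377-109849456 on the minus strand and Ngp at chr9:110419808-110423012 on the plus strand. These 3 genes lie within a stretch of 1.20 Mb that holds 46 RefSeq genes, 31 of them protein coding. Lcn2 lies elsewhere, at chr2:32384637-32387739 on the minus strand, and Cd177 at chr7:24743983-24760334 on the minus strand. The 250 bases before each RefSeq start were searched on both strands for the C/EBP motif TTGCNNAA and for the PU.1 motif GAGGAAGT. The promoters of 3 members held the C/EBP letters, and these are shown with the match in capitals, each read 5′ to 3′ on the strand of its gene, because the members are described below by how far they move together.

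Ltf, chr9:111019191-111019250, 75 to 68 bases before the start, match on the opposite strand, intergenic in GENCODE vM21: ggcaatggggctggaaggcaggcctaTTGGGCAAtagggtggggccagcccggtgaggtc
Ngp, chr9:110419644-110419703, 138 to 131 bases before the start, match on the gene's strand, intergenic: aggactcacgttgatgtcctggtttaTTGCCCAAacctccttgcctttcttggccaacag
Lcn2, chr2:32387922-32387981, 216 to 209 bases before the start, match on the gene's strand, inside a coding exon of another GENCODE transcript of Lcn2: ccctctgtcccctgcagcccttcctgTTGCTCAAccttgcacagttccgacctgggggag

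Ngp held a further match 11 to 4 bases before its start, and the windows of Camp and Cd177 held none. Of 32851 RefSeq promoters of the same length, 3142 or 9.56% held the C/EBP letters. The PU.1 letters were in 802 promoters or 2.44%, and in none of the 5 members, so no matches of both motifs overlapped there. A match describes letters in a window and is not a measured binding site.

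The 24536 kept cells of 26397 barcodes gave 292092 to 4291208 UMIs per library, with 484 to 3387 cells and medians of 383 to 1222.5 UMIs per cell. Many barcodes of day 21 occurred in several libraries: 1046 of 7545 distinct barcodes were in at least 2 of them and 243 in all 6. At day 7 the number was 279 of 5684, and at day 14 it was 103 of 8932. A barcode was assigned to the library with the most UMIs for it if that number was 5 times the second highest or more, and to none otherwise. On that count 94.7% of the barcodes of the healthy spleen and 76.0% of those of the healthy lung at day 21 were not assigned to their library, against 0.875 to 30.4% in the other 16 libraries. The healthy spleen of day 21 had fewer than 20 cells with B cell markers, of which the healthy spleens of days 7 and 14 had 149 and 598, and 25 cells with epithelial markers, so it did not carry the markers of its label. Tumour effects on the members and on the other gene lists, and the day 7 levels, are therefore given with and without the shared barcodes, except where too few cells were left for a fit.

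From day 14 on, each of the 5 transcripts was higher in every tumour-bearing library than in any healthy library of the same tissue. Values are CPM, a gene's UMIs scaled to a common library total, summed over the kept cells of a library, listed in the order of days 7, 14 and 21. Each transcript is counted by its 3′ end, so levels of different genes were compared without a length correction. In such sums, fewer cells of a type and less RNA per cell cannot be told apart.

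In the spleen of tumour-bearing mice Ngp was at 1135, 14184 and 15508 CPM, against 244, 184 and 366 CPM in the healthy spleen. Camp was at 1459, 12263 and 10589 CPM, against 372, 256 and 452 CPM. Lcn2 was at 775, 4608 and 4350 CPM, against 100.2, 56.6 and 192 CPM. For these 3 genes every tumour-bearing library was above every healthy one, and the largest step lay between days 7 and 14. Ltf was at 641, 3846 and 2123 CPM, against 179, 18.3 and 13.7 CPM. Cd177, the least abundant member, was at 60.3, 397 and 548 CPM, against 4.85, 9.16 and 13.7 CPM. Neither gene's groups overlapped, although the healthy spleen of day 7 held more Ltf than those of later days. In that library 3 cells rich in S100a8 and S100a9, the calprotectin transcripts that mark neutrophils, held 108 of the 111 Ltf UMIs and 215 of the 230 Camp UMIs, and each of the 2 genes was found in 1 of these 3 cells.

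In the lung of tumour-bearing mice Lcn2, the most abundant member at days 7 and 21, was at 565, 2036 and 6142 CPM, against 51.2, 24.3 and 172 CPM in the healthy lung. Cd177 was at 31.4, 256 and 453 CPM, against 3.14, 10.4 and 13.1 CPM. Both stood above every healthy lung library from day 7 on. Ngp was at 97.6, 2113 and 5073 CPM, against 18.8, 64.3 and 301 CPM. Camp was at 39.1, 1140 and 1513 CPM, against 27.2, 37.4 and 384 CPM. Ltf was at 9.34, 690 and 781 CPM, against 10.5, 14.8 and 37.6 CPM. At day 7 Ngp and Camp of the tumour-bearing lung lay within the range of the healthy lungs and Ltf lay below it, and at days 14 and 21 all 3 lay above it. The day 7 placements turned with shared barcodes assigned: Ngp was then at 99.5 CPM in the tumour-bearing lung of day 7, against 0, 29.1 and 8.78 CPM in the healthy lungs, and Camp at 39.8 CPM, against 0, 17.7 and 0 CPM, so both lay above all healthy lungs. Ltf was then at 9.52 CPM, within the healthy values of 1.14, 13.2 and 0 CPM.

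In the scaffold of tumour-bearing mice Lcn2 was at 56.2, 141 and 2189 CPM, against 13.1, 18.8 and 59.7 CPM in the healthy scaffold. Ngp was at 4.89, 235 and 1656 CPM, against 0, 28.4 and 37.1 CPM. Camp was at 13.7, 174 and 584 CPM, against 0, 14.8 and 35.6 CPM. With all kept cells these tumour-bearing values lay within the healthy range at day 7, and above it at days 14 and 21. The 0 UMIs of Camp and of Ngp in the healthy scaffold of day 7 allow up to 1.27 CPM, for counting error only. Ltf was at 5.83, 132 and 322 CPM, against 1.70, 19.2 and 2.97 CPM, and Cd177 at 2.33, 14.9 and 148 CPM, against 2.12, 2.62 and 2.67 CPM, with the same pattern of overlap at day 7 alone. With shared barcodes assigned, Lcn2 of the tumour-bearing scaffold of day 7 was at 54.6 CPM, above the healthy values of 13.4, 18.0 and 50.1 CPM. Ltf was then at 0.953 CPM from 4 UMIs, below the healthy values of 1.29, 17.1 and 0.975 CPM. Camp, Ngp and Cd177 stayed within the healthy range at day 7.

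**Figure D1:**
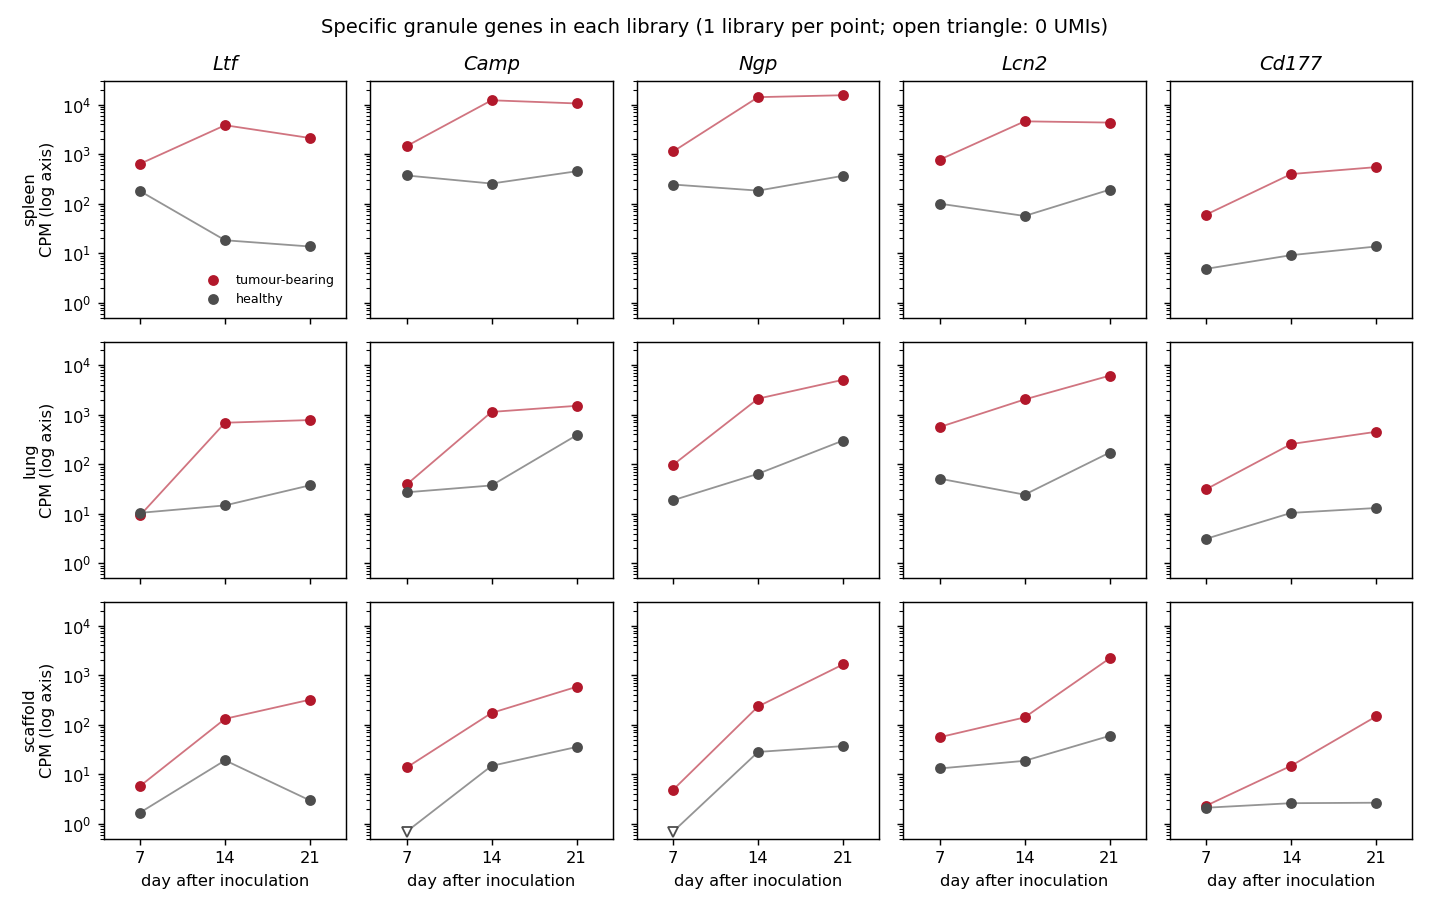
CPM of the 5 genes (log axis) in each of the 18 libraries by day, with 1 panel per gene and tissue; red points are tumour-bearing libraries, grey points healthy ones and open triangles libraries with 0 UMIs. At days 14 and 21 every tumour-bearing point lies above all healthy points of its tissue, whereas at day 7, with all kept cells, this holds for all 5 genes in spleen, for Lcn2 and Cd177 in lung and for no gene in scaffold.

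With all kept cells the day 7 ratios of single libraries differed between genes in the lung. At day 7 the tumour-bearing lung held 11.0 times the Lcn2 level and 10.0 times the Cd177 level of the healthy lung of that day, against 5.19 times for Ngp, 1.44 times for Camp and 0.893 times for Ltf. This order did not hold with shared barcodes assigned: 1 healthy lung cell of day 7 with a shared barcode held 9 of 10 Ltf, all 26 Camp and all 18 Ngp UMIs, and without it Ltf was at 1.14 CPM in the healthy and 9.52 CPM in the tumour-bearing lung of day 7. Lcn2 was then at 46.6 and 575 CPM, Cd177 at 3.41 and 32.0 CPM, and Camp and Ngp were at 0 in the healthy library, so no order of appearance in the lung is drawn from these values. By day 14 the ratios were 83.6 for Lcn2, 46.7 for Ltf, 32.8 for Ngp, 30.5 for Camp and 24.6 for Cd177. In spleen the day 7 ratios ran from 3.57 for Ltf and 3.92 for Camp to 12.4 for Cd177. In scaffold, Lcn2 had a day 7 ratio of 4.27 and Cd177 one of 1.10, and both made their largest step between days 14 and 21, by 15.5 times for Lcn2 and 9.92 times for Cd177. These ratios compare single libraries and carry no test.

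Shared barcodes made up most of the healthy signal in a few libraries. With barcodes assigned, the Camp UMIs of the healthy lung went from 26 to 0 at day 7 and from 235 to 0 at day 21, and its Ngp UMIs from 18 to 0 and from 184 to 1. The healthy spleen of day 21 went from 132 to 15 Camp UMIs and from 107 to 10 Ngp UMIs, and the healthy scaffold of day 21 from 120 to 3 and from 125 to 1. In the tumour-bearing scaffold of day 7, 2 calprotectin-rich cells with shared barcodes accounted for the fall of Camp from 59 UMIs to 1, while Lcn2 went from 241 to 229.

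Over the 3 days, tumour-bearing and healthy libraries were compared with edgeR's quasi-likelihood test on the summed counts, with the day as a block and Benjamini-Hochberg adjustment over 11158 genes; a call is an adjusted p under 0.05. In lung, Cd177 rose by a log2 difference of 4.86 (SE 0.76, adjusted p = 0.00253), Lcn2 by 5.26 (SE 0.85, adjusted p = 0.00295) and Ngp by 4.20 (SE 0.85, adjusted p = 0.00935). Camp (log2 difference 2.72, SE 0.88, adjusted p = 0.0667) and Ltf (4.06, SE 1.40, adjusted p = 0.0783) did not pass. These 3 of 5 stand beside 9.07% of all tested genes called in lung. With shared barcodes assigned all 5 passed in lung, Camp at a log2 difference of 7.19 (adjusted p = 3.80e-04) and Ltf at 6.38 (adjusted p = 0.0111), against healthy lungs of which those of days 7 and 21 then held at most 1 UMI of Camp or Ltf. Without the day 14 libraries none of the 5 passed in lung, with log2 differences from 1.81 for Camp to 5.08 for Cd177, and without the day 7 libraries all 5 did.

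In spleen all 5 rose, beside 3.31% of all tested genes called. The log2 differences were 5.37 for Cd177 (SE 0.79, adjusted p = 0.00364), 4.91 for Lcn2 (SE 0.85, adjusted p = 0.00677), 5.08 for Ngp (SE 0.92, adjusted p = 0.00774), 4.42 for Camp (SE 0.91, adjusted p = 0.0151) and 5.96 for Ltf (SE 1.49, adjusted p = 0.0433). With the day 21 healthy lung and spleen libraries left out 2 of the 5 passed, Cd177 and Lcn2, and without the day 21 libraries of all groups 3 passed. Without the day 14 libraries none passed, with log2 differences from 3.53 for Camp to 4.97 for Cd177. Without the day as a block none passed, with adjusted p from 0.0779 for Cd177 to 0.202 for Camp and Ngp.

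In scaffold none of the 5 passed, beside 0.161% of all tested genes called. The log2 differences were 4.50 for Ngp (SE 0.96, adjusted p = 0.106), 4.17 for Camp (SE 0.91, adjusted p = 0.116), 3.52 for Lcn2 (SE 0.81, adjusted p = 0.153), 3.62 for Cd177 (SE 0.87, adjusted p = 0.163) and 4.08 for Ltf (SE 1.39, adjusted p = 0.677). All 5 had an unadjusted p under 0.05, and DESeq2 called 4 of them. With shared barcodes assigned Camp passed, at 6.66 (adjusted p = 0.00757), and without the day 7 libraries 4 of 5 passed.

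The tumour effect itself was not shown to differ between tissues: 0 of the 5 were called for lung against scaffold, for lung against spleen or for spleen against scaffold, beside 0, 0.0179 and 0% of all tested genes. None of the 5 had an unadjusted p under 0.05 for any pair, and DESeq2 also called 0 of 5 for each. A linear change of the effect per 7 days was called for 0 of 5 in each tissue, beside 0.0269% of genes in lung, 0.0358% in scaffold and 0.0179% in spleen; 0 of 5 in lung, 3 in scaffold and 2 in spleen had an unadjusted p under 0.05. Cd177 in scaffold came nearest, with a change of 2.96 per 7 days on the log2 scale (SE 0.57, adjusted p = 0.163). With shared barcodes assigned the change passed for Lcn2 in lung (3.69 per 7 days, adjusted p = 1.63e-05). In scaffold it then passed for Ltf, Ngp, Lcn2 and Cd177 and in spleen for Ltf, Camp, Ngp and Lcn2, in a fit with 3 residual degrees of freedom in which the healthy spleen of day 21 kept 27 barcodes.

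**Figure D2:**
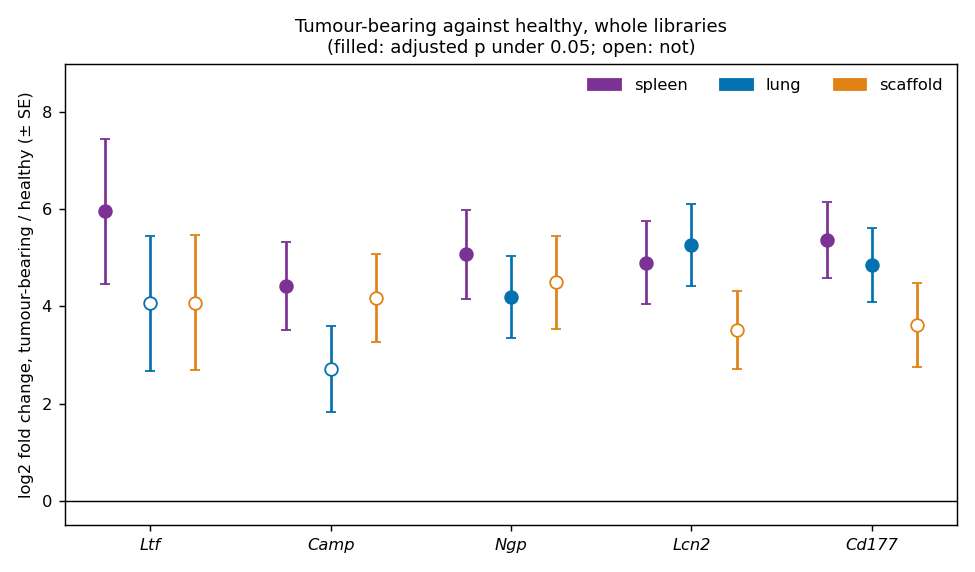
Log2 difference of tumour-bearing against healthy libraries for each gene and tissue with its standard error, from the whole-library fit with all kept cells. All differences are above 0, and filled marks passed the adjusted threshold of 0.05, which 3 genes did in lung, 5 in spleen and none in scaffold.

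Among the tumour-bearing tissues, the spleen stood above the scaffold for all 5 genes, by log2 differences from 3.36 for Lcn2 (SE 0.81, adjusted p = 0.0107) to 5.83 for Camp (SE 1.07, adjusted p = 0.00205), where 16.6% of all tested genes were called. Against the lung the spleen was higher in Camp alone of the 5, by 3.57 (SE 0.96, adjusted p = 0.0416), where 6.63% were called. The log2 differences of Ngp (2.55, adjusted p = 0.121), Ltf (2.45, adjusted p = 0.225), Lcn2 (0.60, adjusted p = 0.630) and Cd177 (0.58, adjusted p = 0.551) did not pass, and leaving out the libraries of any 1 day also ended the call of Camp. The scaffold was below the lung in Cd177, with a log2 difference of -2.92 (SE 0.63, adjusted p = 0.0103), and in Lcn2, with one of -2.77 (SE 0.77, adjusted p = 0.0306), where 12.7% were called. Leaving out the libraries of day 7 or of day 14 ended both of these calls, and without those of day 14 the spleen exceeded the scaffold in 1 of the 5.

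To separate the number of neutrophils from their content, cells were taken in which S100a8 and S100a9, the subunits of calprotectin, made up at least 5% of UMIs. This is a range of a score and not a cell type; 1 to 157 cells per library lay between 4 and 6%. In the tumour-bearing libraries it held 124 to 2035 cells, and in the healthy ones 3 to 164, of which 2 of 35 in lung and 1 of 21 in spleen at day 21 had a barcode assigned to their library. Of 8 neutrophil markers the cells of tumour-bearing libraries had a median of 2 to 5, and 69.7 to 96.0% had at least 2. In these libraries the median number of erythroid markers reached 1 in lung at day 7, and that of macrophage markers in scaffold at day 7. That of alveolar macrophage markers did so in spleen at day 21. At least 2 such markers were found in 18.7, 10.1 and 0.728% of the calprotectin-high cells there. The alveolar macrophage markers include Chi3l3, which is also listed below among specific granule or myelocyte genes. The median of monocyte, dendritic, B, T and stromal markers was 0. At least 2 of 6 granulocyte progenitor markers were found in 1.61, 20.6 and 27.8% of these cells in the spleen, 0, 0.545 and 2.85% in the lung and 0, 1.43 and 4.37% in the scaffold, and the part of such cells in the tissue differences below was not tested. At day 21 these cells held at least 94.9% of each member's UMIs in every tumour-bearing library. Where the share was lower, as for 74.7% of Lcn2 in the scaffold of day 7 and 77.1% of Ltf in the scaffold of day 14, transcripts also lay in other cells. In the healthy scaffold of day 14 the calprotectin-high cells held 11.4% of Ltf and 4.65% of Lcn2.

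Within these cells the spleen still stood apart, and it did so mainly in the transcripts of Ltf, Camp and Ngp. Camp was at 12677, 20220 and 15462 CPM in the spleen, at 130, 2036 and 1946 CPM in the lung and at 456, 2526 and 1832 CPM in the scaffold. Ngp was at 9831, 23410 and 22648 CPM in the spleen, at 326, 3759 and 6512 CPM in the lung and at 165, 3286 and 5159 CPM in the scaffold. Ltf was at 5616, 6341 and 3107 CPM in the spleen, at 28.8, 1230 and 1002 CPM in the lung and at 173, 1512 and 989 CPM in the scaffold. For these 3 genes every spleen library was above every lung and scaffold library. Lcn2 was at 6596, 7575 and 6260 CPM in the spleen, at 1875, 3585 and 7718 CPM in the lung and at 1415, 1774 and 6582 CPM in the scaffold. Cd177 was at 454, 652 and 799 CPM in the spleen, at 83.6, 448 and 573 CPM in the lung and at 78.6, 196 and 448 CPM in the scaffold. The lung of day 21 reached the range of the spleen for Lcn2 and Cd177, and the scaffold of day 21 reached it for Lcn2.

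**Figure D3:**
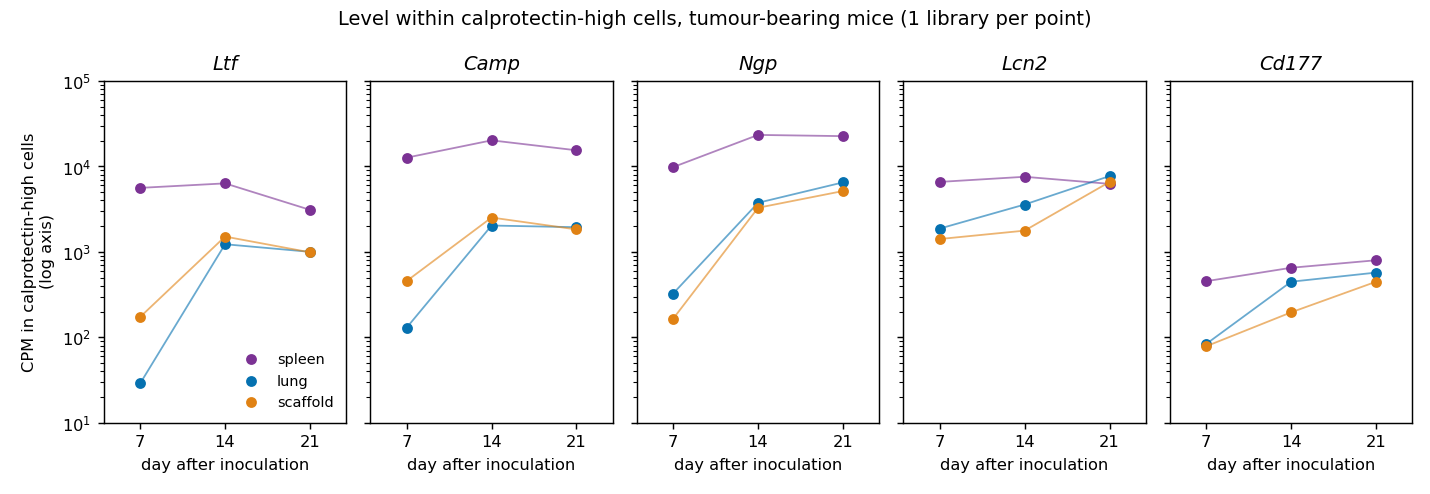
CPM of the 5 genes (log axis) in calprotectin-high cells of the 9 tumour-bearing libraries, by day and tissue. Camp, Ngp and Ltf are higher in all 3 spleen libraries than in any lung or scaffold library, while Lcn2 and Cd177 of the day 21 lung reach the range of the spleen.

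A fit of these cells over 3232 genes, again with the day as a block, called Camp (log2 difference 4.48, SE 0.75, adjusted p = 4.26e-05), Ngp (3.46, SE 0.63, adjusted p = 1.34e-04) and Ltf (3.68, SE 0.73, adjusted p = 4.05e-04) higher in spleen than in lung, beside 21.2% of all tested genes. Cd177 (1.17, SE 0.47, adjusted p = 0.0704) and Lcn2 (1.02, SE 0.50, adjusted p = 0.133) did not pass. All 5 passed with shared barcodes assigned and without the day 21 libraries. Without those of day 7 only Camp did, at 2.54 (adjusted p = 0.00445), and without the block none did, with Camp at 3.56 (adjusted p = 0.0995). Against the scaffold all 5 were higher in spleen, from 1.55 for Lcn2 (SE 0.51, adjusted p = 0.0258) to 3.91 for Camp (SE 0.72, adjusted p = 2.19e-04), beside 23.7% of genes, with 2 passing without the day 7 libraries, 3 without those of day 14 and none without the block. Between scaffold and lung 0 of 5 were called, beside 0.928%, and none of the 5 had an unadjusted p under 0.05.

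Against calprotectin-high cells of healthy mice, 0 of 5 were called in lung, beside 1.02% of genes, and 0 of 5 in scaffold, beside 0.433%; 2 of 5 in lung and all 5 in scaffold had an unadjusted p under 0.05. With shared barcodes assigned 1 of 5 passed in lung and 2 of 5 in scaffold. In spleen 4 of 5 were higher in tumour-bearing mice, beside 0.495%: Ltf by 6.01 (adjusted p = 0.00133), Ngp by 3.79 (adjusted p = 0.00852), Cd177 by 3.25 (adjusted p = 0.0200) and Lcn2 by 2.80 (adjusted p = 0.0263), with Camp at 2.80 (adjusted p = 0.164). The spleen comparison rests on healthy libraries of 23 and 21 cells, of which 20 of the 21 had barcodes not assigned to their library. None of the 21 cells had at least 2 neutrophil markers and 71.4% had at least 2 progenitor markers, against 76.7 and 27.8% in the tumour-bearing spleen of day 21. In the healthy lung of day 21 these shares were 8.57 and 74.3% of 35 cells, so the healthy cells of that day differed in their markers from the tumour-bearing cells. The spleen comparison gave no call when scaled by library totals alone or without the block. With barcodes assigned it could not be fitted, since the healthy spleens then held 3, 20 and 1 calprotectin-high cells.

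The make-up of the granule transcripts is given as a description, since the split of the 5 genes was chosen after these values were seen. Ltf, Camp and Ngp together gave 79.5, 85.8 and 85.2% of the 5 members' UMIs in the tumour-bearing spleen, 19.7, 63.2 and 52.8% in the lung and 29.5, 77.6 and 52.3% in the scaffold. The means were 83.5, 45.2 and 53.1%. In the scaffold of day 7 the share was 3.28% with barcodes assigned. With all kept cells the values were 88.3, 87.4 and 80.2% in the healthy spleen, 50.9, 77.0 and 79.6% in the healthy lung and 10.0, 74.5 and 54.8% in the healthy scaffold. Several of these rest on shared barcodes. With barcodes assigned the healthy lung of day 7 kept 1 UMI of Ltf, 0 of Camp and of Ngp and 41 of Lcn2. That of day 21 kept 1 UMI of Ngp, 1 of Cd177 and 0 of each other member. The healthy scaffold of day 21 kept 3 UMIs of Ltf, 3 of Camp, 1 of Ngp and 154 of Lcn2.

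**Figure D4:**
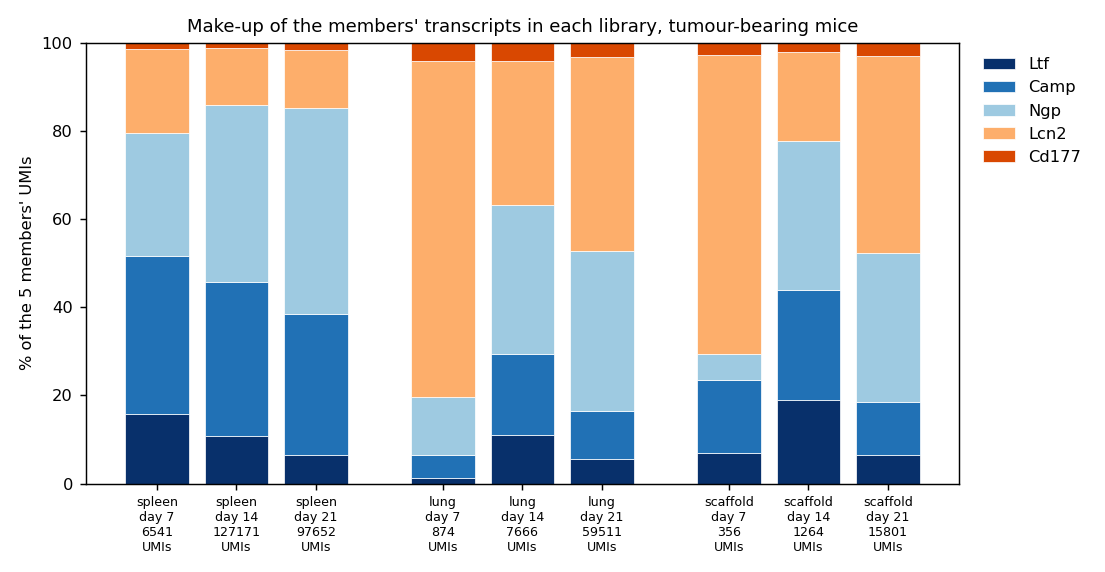
Share of the members' UMIs that came from each of the 5 genes, in percent, for the 9 tumour-bearing libraries, with the number of such UMIs under each bar. In the tumour-bearing spleen Ltf, Camp and Ngp fill 79.5 to 85.8% of each bar, whereas in the lung of day 7 Lcn2 alone fills 76.1%.

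Many calprotectin-high cells carried several members at the same time. Of calprotectin-high cells, 16.9, 66.8 and 67.0% held at least 3 of the 5 transcripts in the tumour-bearing spleen at days 7, 14 and 21, against 2.37, 29.5 and 34.3% in the lung and 1.35, 7.86 and 31.4% in the scaffold. The mean difference was 28.2 percentage points between spleen and lung (p = 0.3, exact permutation test) and 36.7 between spleen and scaffold (p = 0.2, exact permutation test), and the groups overlapped across days. Within each day the spleen share was above those of lung and scaffold, but the permutation test does not use the match of libraries by day. Detection depends on depth, and the median UMIs of these cells ran from 682 to 1452 among tumour-bearing libraries. After each cell was thinned to 300 UMIs, the shares were 14.5, 55.8 and 53.1% in spleen, 0.593, 13.0 and 14.1% in lung and 1.35, 5.04 and 12.4% in scaffold. The spleen then lay above both tissues in all 3 libraries, by 31.9 and 34.9 points, each with p = 0.1 in the exact permutation test, the smallest it can give. The healthy lung had shares of 2.38, 4.62 and 60.0%, the last from cells of which 33 of 35 had barcodes not assigned to that library. In the healthy spleen 1 of 3, 4 of 23 and 13 of 21 cells held at least 3 members. The last of these shares, 61.9%, was near that of the tumour-bearing spleen of day 21. However, 20 of these 21 cells had barcodes not assigned to that library, and none of them had at least 2 neutrophil markers.

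**Figure D5:**
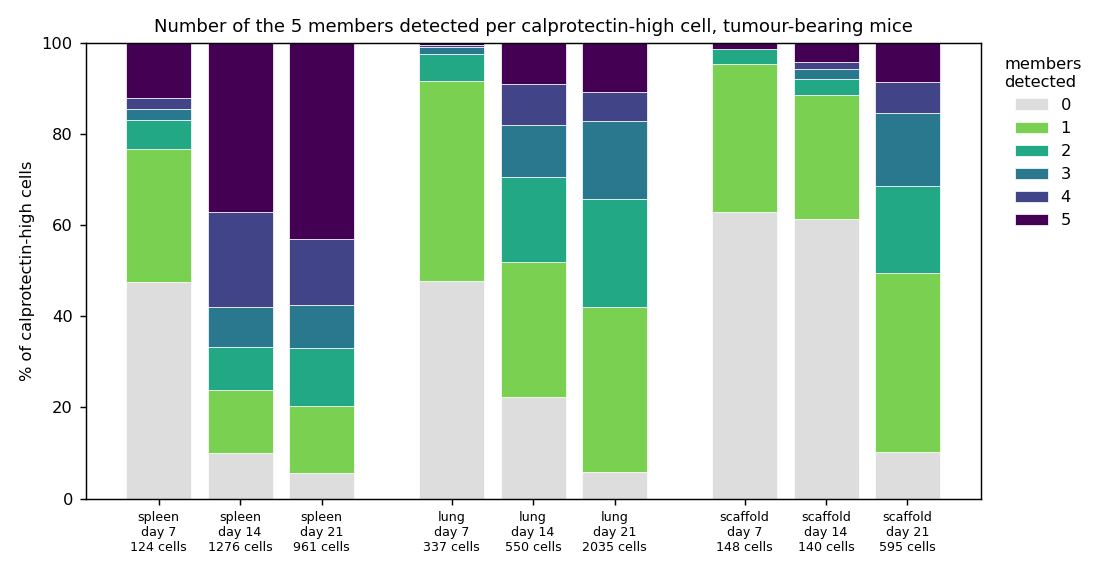
Distribution of calprotectin-high cells by the number of the 5 transcripts detected, in percent of cells, for the tumour-bearing libraries. Cells with all 5 transcripts are 475 of 1276 in the spleen of day 14 and 219 of 2035 in the lung of day 21, where cells with 1 transcript are the largest class.

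Lcn2 was the member found alone. In the lung of day 21, 735 cells held a single member, and in 708 of them it was Lcn2; the same held for 139 of 148 such cells in the lung of day 7 and for 220 of 233 in the scaffold of day 21, but for 93 of 175 in the spleen of day 14. Cells with 4 members mostly lacked Cd177 in the spleen of day 14, in 219 of 264 cells, and Cd177 or Ltf at day 21, in 67 and 63 of 138 cells. In the lung of day 14 Cd177 was missing in 23, Ltf in 14 and Camp in 12 of 49 such cells. The order differed at day 21. Ltf was then missing in 59, Camp in 43 and Cd177 in 27 of 129 such cells of the lung. In the scaffold of day 21 these numbers were 18, 15 and 8 of 41.

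Ltf-positive cells more often held the other members than Ltf-negative cells of the same library, for most pairs. In the lung of day 21 Lcn2 was detected in 92.5% of calprotectin-high cells, Ngp in 50.8%, Cd177 in 36.6%, Camp in 18.8% and Ltf in 15.5%. Of the 315 Ltf-positive cells, 99.0% also held Lcn2, 95.2% Ngp and 78.1% Camp, whereas of the 1720 cells without Ltf 42.7% held Ngp and 7.97% Camp. In the other direction, of the 1882 Lcn2-positive cells 53.8% held Ngp and 16.6% Ltf. At 300 UMIs per cell Camp was in 55.6% of Ltf-positive and 5.90% of Ltf-negative cells of that library, and Cd177 in 25.5 and 9.41%. The scaffold of day 21 gave nearly the same order, with Camp in 69.4% of 85 Ltf-positive cells and 8.24% of 510 others. There Cd177 was in 77.6 and 25.1% of these cells, but at 300 UMIs per cell in 2 of 33 Ltf-positive cells (6.06%) and in 39 of 557 others (7.00%), so no such difference was seen at equal depth. In the spleen of day 14, 94.6% of 758 Ltf-positive cells held Camp and 96.3% Ngp, against 34.6% and 44.0% of 518 others. These spleen values, and those of Camp in the scaffold, were taken without thinning, so depth may add to the differences. These are counts of cells within 1 library each and carry no test between conditions.

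The shares in B and T cells, which should lack the transcripts, give a background, and its source (free RNA, doublets or shared barcodes) was not tested. B cells held Camp in 23.4% and Ngp in 22.8% of 364 cells of the tumour-bearing spleen of day 14, at a median of 567.5 UMIs against 1037 in calprotectin-high cells, of which 70.2% held Camp and 75.1% Ngp. Lcn2 was in 13.7%, Ltf in 11.0% and Cd177 in 1.92% of those B cells. In 145 T cells of that spleen the shares were 33.1% for Ngp, 27.6% for Camp, 15.9% for Lcn2, 8.97% for Ltf and 2.07% for Cd177. In 39 B cells of the tumour-bearing spleen of day 21 they were 33.3, 15.4, 10.3, 5.13 and 2.56%, in the same order of genes. In the lung of day 14 the values in 43 B cells were 20.9% for Ngp, 14.0% for Lcn2 and 9.30% for Camp. In 34 T cells of that lung they were 20.6% for Ngp, 20.6% for Lcn2 and 11.8% for Camp. In the lung of day 7 Camp, Ngp and Ltf were in 0 of 84 B cells, which allows a share of up to 4.30% at the exact 95% limit, while calprotectin-high cells held Ltf and Camp in 0.890% each, a share that is at or below that limit.

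Cells of the tumour-bearing spleen could also be ordered by the other granule waves. Calprotectin-high cells were placed in classes by azurophil granule and mature neutrophil transcripts. Azurophil cells had at least 2 azurophil transcripts. The middle class had fewer than 2 of these and no mature transcript. Mature cells had at least 2 mature and fewer than 2 azurophil transcripts. Cells with fewer than 2 azurophil transcripts and a single mature one were in no class. The classes therefore do not cover all 1276 cells of day 14 or all 961 of day 21. At day 14 Camp was at 20622 CPM in 264 azurophil cells, at 35053 CPM in 79 cells without mature transcripts and at 16800 CPM in 760 mature cells. Ngp was at 23415, 36431 and 20644 CPM in the same order, Ltf at 4967, 9408 and 6620 CPM and Lcn2 at 6425, 10346 and 7795 CPM. At day 14 all 4 genes were highest in the middle class, which was the smallest. At day 21 Camp was at 17367, 23127 and 12006 CPM in 268, 53 and 519 cells, and Ltf at 2192, 5468 and 4054 CPM, in the same order. Cd177 was at 548, 903 and 697 CPM at day 14 and 705, 919 and 922 CPM at day 21, in the same order. These classes also differ in depth, with medians of 2580, 825 and 893.5 UMIs at day 14.

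The cells with mature transcripts of the lung were of another make-up. In 1937 such cells of day 21, all with barcodes of their own library, Lcn2 was detected in 93.0%, Ngp in 50.0%, Cd177 in 37.2%, Camp in 17.3% and Ltf in 15.0%. Their Camp level was 1663 CPM and their Ltf level 966 CPM, against 12006 and 4054 CPM in the mature cells of the spleen of that day. Azurophil cells of any calprotectin share numbered 18, 380 and 367 in the tumour-bearing spleens, and 378 and 361 of those of days 14 and 21 had barcodes assigned to their library. In the lung they numbered 1, 11 and 107, of which 32 of the 107 had such barcodes, and in the scaffold 3, 5 and 47, of which 5 of the 47 did.

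Genes of the other granule waves were compared in the same fits, with log2 differences of tumour-bearing against healthy libraries. All 7 azurophil genes rose in the tumour-bearing spleen, among them Mpo, encoding myeloperoxidase (log2 difference 4.17), Elane, encoding neutrophil elastase (3.62), and the serine protease genes Prtn3 (3.92) and Ctsg (3.71). With all kept cells none of the 7 passed in lung or scaffold, where Mpo was at -0.08 and 0.34, and the median over the list was 3.62 in spleen and -0.08 in lung, against -0.03 and -0.22 over all tested genes. The lung result turned with shared barcodes assigned: 5 of 7 then rose in lung, among them Mpo (adjusted p = 0.0287), 1 in scaffold, which was Prtn3 (adjusted p = 0.0187), and all 7 in spleen. The tumour effect itself differed between lung and spleen for 1 of 7, Ms4a3, with all kept cells and for 0 of 7 with barcodes assigned. In calprotectin-high cells 5 of 6 azurophil genes were called lower in tumour-bearing than in healthy lung (median -4.62), and none of the 6 was called in either direction with barcodes assigned (median 3.23). Of 12 other specific granule or myelocyte genes 7 rose in spleen, 5 in lung and none in scaffold: Fcnb, encoding ficolin B, was at 3.77 in spleen (called) and 1.06 in lung, Pglyrp1, a peptidoglycan recognition gene, at 3.86 and 3.65 (both called), Mmp8, encoding neutrophil collagenase, at 3.65 and 4.45 (called in lung), and Chi3l3, a chitinase-like gene, at 4.58 and 0.18 (neither called). In calprotectin-high cells all 6 tested azurophil genes were higher in spleen than in lung, with a median log2 difference of 5.51, as were 5 of 10 other specific granule genes. With barcodes assigned these were 6 of 6 and 6 of 10.

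Genes of later stages rose in both organs. Of 7 gelatinase granule and late genes 5 rose in lung, 3 in spleen and none in scaffold; Mmp9, encoding gelatinase B, was at 3.08 in lung (called) and 2.33 in spleen, Mmp25 at 4.31 and 3.78 (both called), the formyl peptide receptor gene Fpr1 at 2.70 and 4.31 (both called), and the integrin gene Itgam at 1.72 and 1.32. The list's median was 2.70 in lung and 3.78 in spleen. Of 9 mature neutrophil genes 8 rose in lung, 7 in spleen and 1 in scaffold, which was Ly6g (4.35, adjusted p = 0.0439). The receptor genes Csf3r and Cxcr2 were at 3.64 and 4.75 in lung and at 3.03 and 4.12 in spleen, and Il1b at 3.32 and 2.96, all called. In calprotectin-high cells none of the late or mature genes was called higher in spleen than in lung, and 1 of each list was called lower: Adam8, a surface protease gene (-1.46), and the receptor gene Trem1 (adjusted p = 0.0404), both named after their values were seen. The list medians were -0.72 and -1.25, against -0.02 over all genes. The tumour effect itself was called different between lung and spleen for 0 of 7 late and 0 of 9 mature genes. With barcodes assigned, 7 late genes rose in lung and 7 in spleen, 9 and 8 mature genes did, and 2 late and 4 mature genes were called lower in calprotectin-high cells of the spleen than of the lung.

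Of 8 listed regulators 6 were tested, and 2 rose in spleen (Cebpe and Spi1) and 2 in lung (Spi1 and Stat3). Cebpe, encoding C/EBP epsilon, was at 3.58 in spleen (adjusted p = 0.00603) and did not pass in lung (adjusted p = 0.174), and in calprotectin-high cells it was higher in spleen than in lung by 3.77, a call. Spi1, encoding PU.1, was at 1.91 in spleen and 1.90 in lung, both called, whereas Cebpa was at -1.10 and -0.62 and Cebpb at 0.62 and 1.12, neither called. Of 8 genes for receptors or partners of the members' proteins 6 were tested: the formyl peptide receptor gene Fpr2 was at 4.28 in spleen (called) and 2.13 in lung, the lactoferrin receptor gene Lrp1 at -0.22 and -0.44, Pecam1, whose protein binds Cd177, at -0.47 and -0.72, and Itgam at 1.32 and 1.72. In all, 2 of the 6 rose in spleen, Fpr2 and Prtn3, and none in lung or scaffold. With barcodes assigned 3 rose in lung, 1 in scaffold and 3 in spleen, and of the regulators 3 rose in lung, none in scaffold and 2 in spleen. Of the other specific granule genes 5, 0 and 9 then rose.

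Across the 18 libraries the members' levels rose and fell together, although they differed in height. Pearson's r of log2 CPM was highest for Camp with Ngp (0.98) and for Lcn2 with Cd177 (0.97) and lowest for Camp with Cd177 (0.86). With barcodes assigned these values were 0.98, 0.87 and 0.78. Ltf with Ngp (0.90), with Cd177 (0.90) and with Camp (0.88) then lay above Lcn2 with Cd177. The genes outside the set most like each member were Adpgk (r = 0.92), Ncbp1 and Ifitm6 for Ltf, Cd24a (0.90), Mgst2 and Prtn3 for Camp, and Pglyrp1 (0.93), Cd24a and Ifitm6 for Ngp. For Lcn2 they were Cep19 (0.98), Ceacam10 and Ifitm6, and for Cd177 Ifitm6 (0.98), Pglyrp1 and Ceacam10. Libraries share tissue, status, day and, at day 21, barcodes, so these values are a description without a test.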

How the data were processed

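Single-cell transcriptomes of 18 libraries were analysed from the UMI count tables (genes by cell barcodes) that the authors deposited; the submitters' processing notes name Seurat 2 and the mm10 build, and aligner and counting settings are not stated there. The tables list only genes with a UMI, so an unlisted gene was taken as 0. Cells with at least 200 genes and under 20% mitochondrial UMIs were kept. No doublet caller was run, and no step to remove doublets is given in the sources used here. Counts were summed per library, and per library over calprotectin-high cells where at least 20 were present, and tested with edgeR 4.0.16 in R 4.3.3 (TMM, filterByExpr, quasi-likelihood, Benjamini-Hochberg adjustment). The day given in the labels was the block. Tumour effects were fitted with a day term within each tissue (6 residual degrees of freedom, 3 with a linear change per day), tissues were compared with 1 day term over all groups (10), and calprotectin-high cells likewise (8). DESeq2 1.42.0 was an alternative. The fits were tested on simulated counts. Shares of cells were compared with 2-sided exact permutation tests over libraries (scipy 1.17.1), intervals are exact binomial at 95%, and a count of 0 was given a limit of 3 counts; both cover counting error only. Promoter sequences came from RefSeq.

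The members always appear by name. Of each further list the first up to 4 tested genes in list order are named, called or not, and for each member the 3 genes with the highest correlation over libraries, computed on log2 CPM with a prior count of 2. Members and lists were chosen with earlier results of these data known. Shared barcodes were assigned to the library with the most UMIs, if 5 times the second highest or more. Leaving out the day 21 healthy lung and spleen libraries, and assigning barcodes for the linear change, the make-up, the lists and the correlations, were chosen after seeing the data.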

Additional observations from a re-analysis of the deposited data

How the results depend on the processing

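The number of members called in 18 comparisons was recomputed in 148 alternatives. It was equal or stayed within 1.5 times in 106, and comparisons with 0 calls that stayed at 0 count among these. The 106 therefore do not measure how stable the calls above 0 were. Tumour-bearing against healthy, 3 of 5 in lung became 5 without the filter on low counts, 5 with barcodes assigned and 0 to 5 when the libraries of 1 day were left out. In scaffold 0 became 4 with DESeq2, 5 without the filter, 3 with the tissue fitted alone, 1 with barcodes assigned and 0 to 4 without a day. In spleen 5 became 0 without the replicate block, 3 with cells of at least 400 genes, 2 with the day 21 healthy lung and spleen libraries left out and 0 to 5 without a day. The effect in lung against scaffold went from 0 to 1 without the filter, and the change per 7 days from 0 in each tissue to 1 in lung, 4 in scaffold and 4 in spleen with barcodes assigned, where that of Camp in scaffold turned from -0.29 to 4.27. Between tumour-bearing tissues, calls of 1 for spleen against lung, 2 for scaffold against lung and 5 for spleen against scaffold all became 0 without the replicate block, and 0, 0 to 3 and 1 to 5 without a day.

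In calprotectin-high cells, calls against healthy cells went from 0 to 1 in lung with barcodes assigned and 0 to 1 without a day, and from 0 to 1 in scaffold with a limit of 2% and to 2 with barcodes assigned. In spleen 4 became 0 with library totals alone, 0 without the replicate block and 1 without day 7. Spleen against lung, 3 became 0 without the block, 5 with barcodes assigned, 5 without the day 21 healthy lung and spleen libraries and 1 to 5 without a day; spleen against scaffold, 5 became 0 without the block and 2 to 5 without a day. The cause was not tested.

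Of 439 alternatives for 60 log2 differences of single members, 322 kept direction and side of the threshold and 4 turned direction. Without a day, spleen against lung gave -0.34 to 0.93 for Lcn2 in whole libraries, and -0.030 to 1.56 for Lcn2 and -0.13 to 1.69 for Cd177 in calprotectin-high cells. The share of cells with at least 3 members in tumour-bearing minus healthy lung, -0.289 points, became 1.53 with a limit of 2%, 20.9 with barcodes assigned and -12.9 to 12.4 without a day. The share of Ltf, Camp and Ngp in scaffold minus lung became -1.03 points with barcodes assigned. Fits of calprotectin-high cells were not run where a group kept fewer than 2 libraries. The healthy spleen and lung of day 21 were the shallowest libraries, with 292092 and 611206 UMIs, and Ltf rested on 4 UMIs in that spleen.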
